A study of Mus musculus with 4 samples.

Results

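The accessibility of chromatin around 33 cell cycle genes was examined in endothelial cells from mouse retina. All 33 listed genes were found among the 21631 protein-coding genes of a RefSeq table on the autosomes and X. The genes were taken from a fixed list, and for each of them every peak was collected that overlapped the gene body or the 10 kb on either side of it (the locus). Peaks within 1 kb of either end of the gene are called gene-end peaks. The list holds 8 genes of DNA replication, 7 of mitosis, 8 cyclins, 4 cyclin-dependent kinases, 5 inhibitors of cell cycle entry and the transcription factor gene E2f1.

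The assay was ATAC-seq, in which a transposase inserts adapters into open DNA. Endothelial cells were isolated by FACS from retinas of C57BL/6 mice labelled P16, with 2000 cells per library. There were 2 control libraries and 2 libraries whose genotype is labelled Zeb1 knockdown and whose titles read Zeb1-CKO. Zeb1 encodes a zinc-finger transcription factor. The promoter that drove the deletion, the alleles of the controls and the number of animals behind each library are not given in the labels, and the spread within a group may therefore be technical.

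Cells enter S phase when cyclin D with Cdk4 or Cdk6, and then cyclin E with Cdk2, phosphorylate the retinoblastoma protein and release E2F factors. E2F factors activate genes of replication, and a later wave of genes for mitosis is activated through CHR and CCAAT elements read by MuvB complexes and NF-Y. Inhibitors of the Cip/Kip and INK4 families hold the kinases in check, and in growing retinal vessels cells pass from proliferation to quiescence as the network matures.

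The 4 peak lists differed in length. Control replicates 1 and 2 held 7608 and 13672 peaks, and knockdown replicates 1 and 2 held 13689 and 19886. The lists carry no read depth, and where a peak is missing, closed chromatin and shallow sequencing cannot be told apart. With 2 libraries against 2, an exact two-sided permutation test cannot give a p below 0.333, and no difference was tested. Endothelial identity was read from 10 marker genes. At an end, 3, 5, 6 and 6 of them were open in control 1, control 2, knockdown 1 and knockdown 2. These are 30%, 50%, 60% and 60%, against 22.0%, 38.5%, 39.5% and 45.2% of all protein-coding genes. Cdh5, Tie1 and Cldn5 were open there in all 4, Kdr and Flt1 in all but control 1, and Esam in the knockdown libraries only. Pecam1, Tek, Erg and Emcn had no gene-end peak in any library. Over the locus, 8, 10, 10 and 10 had a peak (80%, 100%, 100% and 100%). The shares of all genes were 35.4%, 53.9%, 54.6% and 61.7%. Of 10 photoreceptor markers, 0, 8, 0 and 7 had a gene-end peak and 2, 10, 4 and 10 a locus peak, so these markers moved with replicate 2 in both groups. At gene ends the 6 glial markers counted 2, 2, 1 and 2, the 7 inner neuron markers 1, 1, 2 and 2, and the 6 mural markers 0, 1, 0 and 1. The 6 leukocyte markers counted 1, 0, 0 and 0, and the 4 erythroid markers 0 in every library. Over the locus the glial markers counted 2, 2, 2 and 3, and the inner neuron markers 1, 3, 2 and 2. There the mural markers counted 0, 1, 0 and 3, the leukocyte markers 3, 2, 2 and 2, and the erythroid markers 0 throughout.

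Cell cycle genes were open in both groups. A gene-end peak was listed for 13 and 23 of the 33 genes in the control libraries and for 24 and 27 in the knockdown libraries. The means were 18.0 ± 7.07 (SD, n = 2) and 25.5 ± 2.12 (SD, n = 2), and the difference of 7.5 genes was close to the SD of the controls. Within replicate numbers 1 and 2 it was 11 and 4. Control replicate 1 stood apart, and the other 3 libraries lay within 4 genes of one another. In the same libraries 22.0%, 38.5%, 39.5% and 45.2% of all protein-coding genes had a gene-end peak, against 39.4%, 69.7%, 72.7% and 81.8% of the cell cycle genes. The order of the libraries was thus the same for the cell cycle genes and for all genes. When each list was limited to its 7608 strongest peaks, the counts became 13, 15, 15 and 16 genes, and the difference between the group means fell to 1.5. Between control replicate 2 and knockdown replicate 1 alone, whose lists were of nearly equal length, it was 1.

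**Figure D1:**
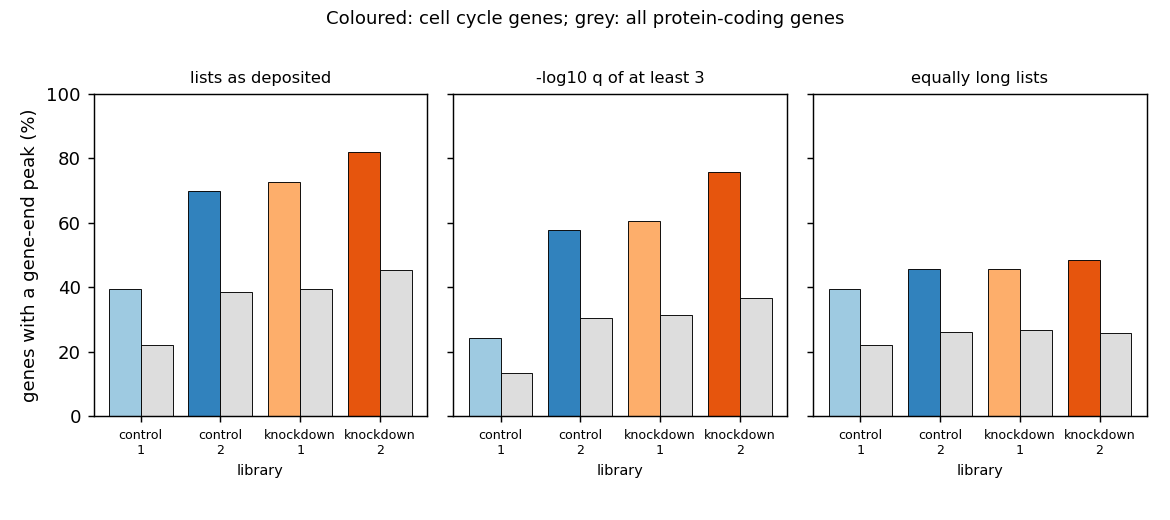
Share of genes with a gene-end peak (vertical axis, percent) in each library, for the 33 cell cycle genes (coloured bars) and all protein-coding genes (grey bars), with the lists as deposited, with a −log10 q of at least 3, and with 7608 peaks per list. The 4 coloured bars run from 39.4% to 81.8% with the lists as deposited and from 39.4% to 48.5% with equally long lists.

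Control replicate 1 set most of the patterns apart. A gene-end peak was held by all 4 libraries at 13 genes, against 20.9% of all genes, and by all but control replicate 1 at 9 genes, against 12.6%. Knockdown-only genes, with a peak in both knockdown libraries and in neither control, numbered 2 (Ccnb2 and Mcm6), against 3.80% of all genes. Control-only genes numbered 0, against 0.0324%. Another 2 genes (Mcm2 and Bub1) had a gene-end peak in knockdown replicate 2 alone, against 4.32% of all genes, 1 (Aurkb) in both replicate 2 libraries, against 2.92%, and 6 in none, against 51.5%. Cell cycle genes held gene-end peaks at a higher share than all genes in each library, so the shares were also taken over genes open at an end in 1 library or more. There, 4 libraries out of 4 held the peak at 48.1% of 27 cell cycle genes and 43.1% of 10499 genes, and 7.41% and 7.82% were knockdown-only. The share of knockdown-only genes was near the background.

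The count of knockdown-only genes turned on control replicate 2. Without that library it was 11 (against 16.4% of all genes), since the 9 genes missing from control replicate 1 then counted too. Without knockdown replicate 1 it was 4 (against 8.11%). It was 2 without control replicate 1 (against 4.16%) and 2 without knockdown replicate 2 (against 4.94%). Between control replicate 2 and knockdown replicate 1, 22 cell cycle genes had a gene-end peak in both, 2 only in the knockdown library (6.06%, against 5.38% of all genes) and 1 only in the control library (3.03%, against 4.35%).

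**Figure D2:**
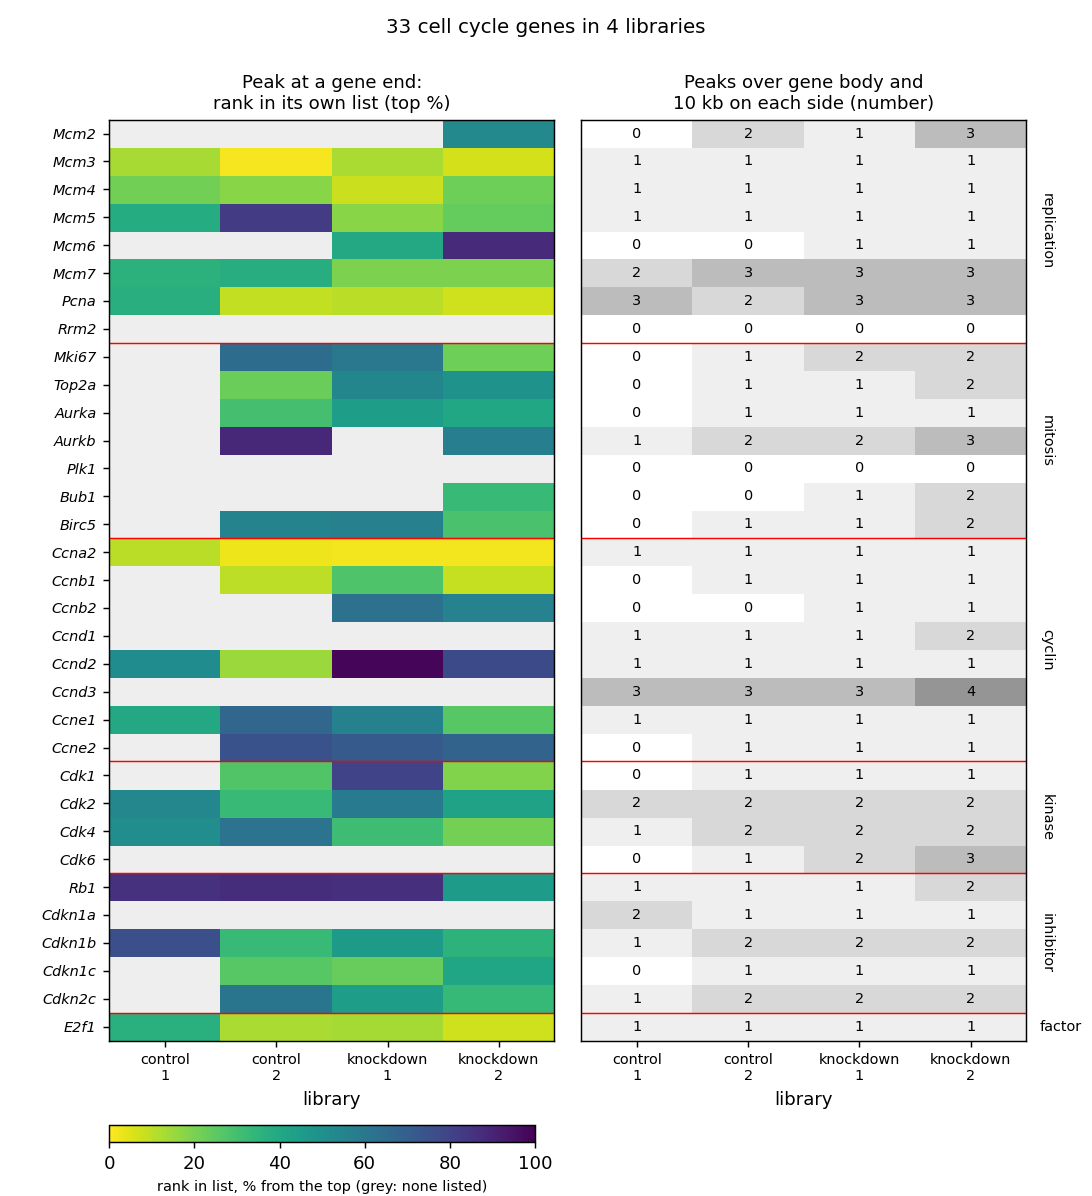
The 33 genes (rows, grouped by role) in the 4 libraries (columns): left, the rank of the gene-end peak within its own list, in percent from the top, with grey where none was listed; right, the number of peaks in the locus. Mcm6 and Ccnb2 have gene-end peaks in both knockdown columns only, and Rrm2 and Plk1 have 0 peaks throughout.

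The promoters of the genes on which these counts turn are shown first, each from 250 bases before to 30 after the annotated start, from RefSeq on GRCm38.p6, the assembly whose chromosomes are those of mm10. Mcm6 (chr1:128359676-128359955, minus strand) and Ccnb2 (chr9:70421525-70421804, minus strand) are the knockdown-only genes. Mcm3 (chr1:20820283-20820562, minus strand) had a high-ranking peak in every library. Ccnb1 (chr13:100786457-100786736, minus strand) lacked a peak in control replicate 1 alone. Plk1 (chr7:122159185-122159464, plus strand) and Rrm2 (chr12:24708004-24708283, plus strand) had none. Capitals mark letters that match 1 of 4 motifs searched on both strands, and matches may overlap. The first motif was the E2-box CAGGTG, which Zeb1 is known to bind. An E2F site was read as TTTGGCG, as TTTCGCG or as the variant TTTCCCG. A CHR element was read as TTTGAA or as its variant TTCGAA. The CCAAT box was read by the letters of its name.
Mcm6: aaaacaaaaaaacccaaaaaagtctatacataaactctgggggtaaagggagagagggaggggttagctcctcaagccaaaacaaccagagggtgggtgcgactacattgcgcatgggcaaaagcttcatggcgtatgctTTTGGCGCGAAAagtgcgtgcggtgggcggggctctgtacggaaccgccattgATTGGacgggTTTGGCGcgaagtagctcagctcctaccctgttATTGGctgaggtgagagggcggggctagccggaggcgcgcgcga
Ccnb2: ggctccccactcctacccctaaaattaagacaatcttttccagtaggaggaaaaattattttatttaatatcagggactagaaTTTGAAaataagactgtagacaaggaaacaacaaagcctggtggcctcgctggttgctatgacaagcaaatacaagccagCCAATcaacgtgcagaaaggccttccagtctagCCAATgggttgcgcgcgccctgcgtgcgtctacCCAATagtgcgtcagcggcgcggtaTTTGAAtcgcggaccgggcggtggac
Mcm3: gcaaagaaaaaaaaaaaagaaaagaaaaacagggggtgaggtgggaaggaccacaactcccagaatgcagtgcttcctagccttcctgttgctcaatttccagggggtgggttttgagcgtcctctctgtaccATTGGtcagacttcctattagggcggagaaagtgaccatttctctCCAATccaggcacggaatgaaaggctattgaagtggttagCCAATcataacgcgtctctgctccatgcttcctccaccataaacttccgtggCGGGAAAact
Ccnb1: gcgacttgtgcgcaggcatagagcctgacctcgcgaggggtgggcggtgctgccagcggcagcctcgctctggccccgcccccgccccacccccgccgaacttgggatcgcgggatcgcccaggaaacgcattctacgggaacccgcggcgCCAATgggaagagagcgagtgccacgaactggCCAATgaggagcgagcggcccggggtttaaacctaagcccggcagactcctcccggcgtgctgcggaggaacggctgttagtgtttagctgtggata
Plk1: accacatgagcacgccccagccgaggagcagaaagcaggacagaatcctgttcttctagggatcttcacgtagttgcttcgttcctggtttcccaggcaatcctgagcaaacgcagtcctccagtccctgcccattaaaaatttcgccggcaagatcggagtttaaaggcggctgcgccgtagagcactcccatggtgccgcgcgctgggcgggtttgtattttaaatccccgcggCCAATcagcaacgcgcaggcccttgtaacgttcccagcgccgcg
Rrm2: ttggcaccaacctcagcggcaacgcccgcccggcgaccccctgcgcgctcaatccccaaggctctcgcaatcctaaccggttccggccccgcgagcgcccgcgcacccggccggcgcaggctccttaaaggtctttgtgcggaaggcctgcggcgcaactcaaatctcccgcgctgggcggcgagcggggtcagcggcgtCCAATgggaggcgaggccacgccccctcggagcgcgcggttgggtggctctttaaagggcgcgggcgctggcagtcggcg

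RefSeq promoter entries matched 25 of the 33 genes, 4 of them with 2 annotated starts. Mcm4, Aurkb, Ccna2, Ccnd1, Ccnd2, Ccne2, Cdkn1c and Rb1 are named without one. The gene-end peaks lay at starts: of the 63 such peaks of genes with an entry, 57 covered an annotated start, and their centres lay from −669.5 to 305.5 bp of the nearest start, with a median of −75 bp, where a minus sign means before the start. The 6 exceptions were the 4 peaks of E2f1, which ended between −475 and −393 bp of its annotated start, the peak of Mki67 in control replicate 2 (ending at −93 bp) and that of Cdkn1b in control replicate 1 (ending at −82 bp). No gene had more than 1 gene-end peak in any library. At 5 of the 27 genes open at an end, that peak also lay within 1 kb of an end of another gene: Prkdc beside Mcm4, Ap4m1 beside Mcm7, Cds2 beside Pcna, Cstf1 beside Aurka and Bbs7 beside Ccna2. Such peaks cannot be given to 1 gene of the pair.

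Most genes of replication were open at an end in both groups. The minichromosome maintenance genes Mcm2 to Mcm7 encode the 6 subunits of the replicative helicase. Gene-end peaks were held by all 4 libraries at Mcm3, Mcm4, Mcm5 and Mcm7, and likewise at Pcna, the sliding clamp of DNA polymerase. In each library 5, 5, 6 and 7 of the 8 genes had a gene-end peak (control 1, control 2, knockdown 1 and knockdown 2). With equally long lists, Mcm3, Mcm4, Mcm7 and Pcna had the peak in all 4 libraries and Mcm5 did not.

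Ranks are given below as the percentage of a list at which a peak stands, counted from its strongest peak. They describe a peak within its own list only, and differences between lists of unequal length cannot show whether accessibility changed. The Mcm3 peak stood at 13.2%, 1.37%, 12.9% and 6.49% of the lists of control 1, control 2, knockdown 1 and knockdown 2. It was among the stronger peaks of each list, and the 4 peaks shared 389 bp. The Mcm4 peak, between Mcm4 and Prkdc, stood at 21.1%, 17.9%, 8.16% and 22.2%. The Pcna peak stood at 37.2%, 9.05%, 10.3% and 7.28%. These ranks were in the upper 40% of every list. The Mcm7 peak was the widest gene-end peak of the group in each library, 1019, 1253, 1198 and 1262 bp, and it covered both annotated starts in every library. Mcm5 stood lower in control replicate 2 (82.3%) than within the other lists (37.9%, 17.6% and 23.7%). Its peak was 268 and 254 bp wide in the control libraries against 878 bp in each knockdown library, and the wider peaks began at −765 and −764 bp of the start against −218 and −174 bp. The 2 groups did not overlap in this width, which was common. Of the 13 cell cycle genes with a gene-end peak in every library, 8 had wider peaks in both knockdown libraries than in both controls (Mcm3, Mcm4, Mcm5, Pcna, Cdk2, Cdk4, Rb1 and Cdkn1b), and so did 51.5% of the 4529 such genes overall. Only Ccnd2 was narrower in both, as were 1.63% of the 4529 genes. The median width of all gene-end peaks was 414 and 390 bp for the controls against 510 and 470.5 bp for the knockdown, and the part of depth was not tested.

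Mcm6 was the knockdown-only gene of this group. The gene lies on chromosome 1 from 128331575 to 128359705. Its peaks covered 465 and 481 bp around the start in knockdown replicates 1 and 2, all 465 bp of the first within the other, and stood at 39.6% and 87.6% of their lists. Neither control list held a peak within 10 kb of the gene. The knockdown peaks covered all 3 E2F matches, which begin at positions −110, −105 and −47 from the start, and the CCAAT matches that begin at −57 and −14. The first 2 E2F matches overlap in a single run, seen in capitals in the Mcm6 sequence. The peak in knockdown replicate 2 had a −log10 q of 2.03, and with a −log10 q of at least 3 Mcm6 was no longer knockdown-only. It was not knockdown-only with equally long lists either.

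Mcm2 had a gene-end peak in knockdown replicate 2 alone, 212 bp wide and at 53.0% of its list. The other peaks in its locus lay at the ends of Tpra1 (control 2 and both knockdown libraries) and Podxl2 (both replicate 2 libraries). Rrm2, which encodes the regulated subunit of ribonucleotide reductase, had 0 peaks in its locus in all 4 libraries.

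Genes of mitosis were the only group of more than 1 gene with no gene-end peak in control replicate 1, and no mitosis gene was held by all 4 libraries. Per library 0, 5, 4 and 6 of the 7 genes had one. Mki67 (the antigen Ki-67), Top2a (topoisomerase II alpha), Aurka (the spindle kinase Aurora A) and Birc5 (survivin, of the chromosomal passenger complex) had gene-end peaks in all but control replicate 1. Their ranks lay in the middle of the lists. In control 2, knockdown 1 and knockdown 2, Mki67 stood at 64.8%, 60.0% and 22.2%, and Top2a at 22.5%, 54.2% and 48.8%. Aurka stood at 29.3%, 44.4% and 40.1%, and Birc5 at 55.4%, 56.3% and 28.7%. Over the gene-end peaks of the group the median rank was 55.4%, 55.3% and 36.5% in these libraries. For replication it was 17.9%, 15.2% and 22.2%, and for all gene-end peaks in the lists 38.4%, 39.9% and 34.7%. The median of the mitosis peaks thus stood lower in the 3 lists than that of the replication peaks. In control 2 the ranges overlapped, at 22.5% to 88.6% for mitosis and 1.37% to 82.3% for replication. They also overlapped in knockdown 2, at 22.2% to 57.2% and 6.49% to 87.6%. In knockdown 1 they did not, at 44.4% to 60.0% and 8.16% to 39.6%. No test was made of the difference in medians. The peaks of Mcm4, Mcm7, Pcna and Aurka also lay within 1 kb of another gene's end. Without them, replication keeps Mcm3 (1.37%) and Mcm5 (82.3%) in control 2. In knockdown 1, Mcm3 (12.9%), Mcm5 (17.6%) and Mcm6 (39.6%) ranked higher than every mitosis peak. In knockdown 2, Mcm3 (6.49%), Mcm5 (23.7%), Mcm2 (53.0%) and Mcm6 (87.6%) spanned the mitosis range. Medians without the shared peaks were not computed.

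Aurkb, the kinase of the chromosomal passenger complex, had a gene-end peak in both replicate 2 libraries and in neither replicate 1 library. The peaks were 373 bp wide at 88.6% of the control 2 list and 214 bp wide at 57.2% of the knockdown 2 list. The photoreceptor markers moved with the same libraries (0, 8, 0 and 7 of 10 at gene ends), and their part in this pattern was not tested. Bub1, a kinase of the spindle checkpoint, had a gene-end peak in knockdown replicate 2 alone, at 32.8% of the list and 295 bp wide. Plk1, the polo-like kinase of mitotic entry, had 0 peaks in its locus in any library. Its promoter holds 1 match, a CCAAT box.

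Among the cyclins, gene-end peaks were held by all 4 libraries at Ccna2, Ccnd2 and Ccne1. Ccnb1 and Ccne2 lacked them in control replicate 1 alone, Ccnb2 was knockdown-only, and Ccnd1 and Ccnd3 had none at either gene end. The counts per library were 3, 5, 6 and 6 of 8. Ccna2 encodes cyclin A2, which acts from S phase to mitosis. Its peak stood at 10.2%, 2.49%, 1.59% and 1.85% of the lists and was 484, 453, 477 and 483 bp wide. Among the 33 genes it had the highest-ranking gene-end peak in control 1, knockdown 1 and knockdown 2, and came after Mcm3 in control 2. The Ccna2 peak also lay within 1 kb of an end of Bbs7 and cannot be given to Ccna2 alone. With windows of 500 bp, Ccna2 was no longer among the genes held by all 4 libraries. Ccnd2, a D cyclin that links growth signals to Cdk4 and Cdk6, stood at 51.3%, 15.1%, 98.3% and 77.6%. Its peak was 500 and 335 bp wide in the 2 control libraries and 240 and 226 bp in knockdown replicates 1 and 2. With 7608 peaks per list its peak remained in the controls only, and Ccnd2 and Cdk2 were then control-only. The share of all genes that were control-only in lists of this length was not computed.

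The B cyclins drive mitosis with Cdk1. The Ccnb1 peak was absent from control replicate 1 and stood at 9.86%, 27.5% and 8.93% of the lists of control 2, knockdown 1 and knockdown 2. It was a strong peak in all 3, and the 3 peaks shared 327 bp. Ccnb2 (chromosome 9, 70407689 to 70421554) had peaks of 200 bp each in the knockdown libraries, at 62.8% and 55.8% of their lists, and no other peak in its locus in any library. A width of 200 bp is the smallest in all 4 lists, and the 2 peaks shared 126 bp. Both covered the 3 CCAAT matches and the CHR match that begins 5 bases into the transcript. The CHR match that begins at position −167 from the start was covered in knockdown replicate 1 only. Ccnb2 stayed knockdown-only with a −log10 q of at least 3 and not with equally long lists.

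**Figure D3:**
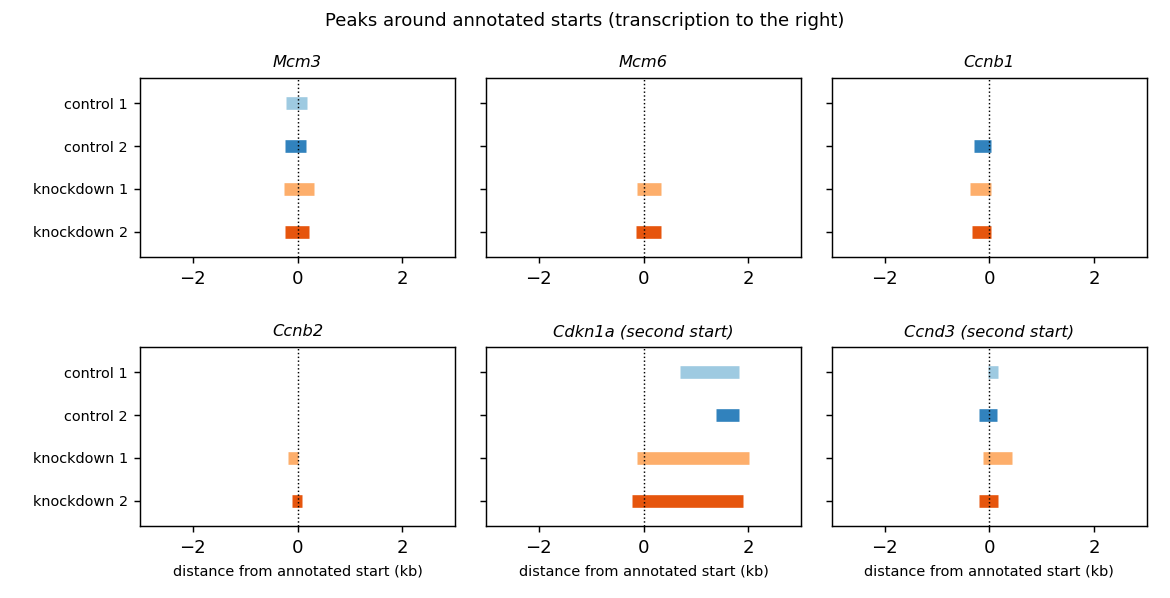
Extent of each peak (bars) along the direction of transcription, in kb from the annotated start (dotted line), for 6 genes in the 4 libraries. For Ccnd3 and Cdkn1a the second annotated start is used. Peaks cross the start shown in all 4 libraries at Mcm3 and Ccnd3 and in the knockdown libraries alone at Mcm6, Ccnb2 and Cdkn1a. At Cdkn1a the control peaks begin 704 and 1391 bp after it.

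Cyclins D1 and D3 were open away from their gene ends. At Ccnd1, 1 region lay 1639 bp from the high-coordinate end of the gene (chromosome 7, 144941470 to 144941787) in all 4 libraries. Its peaks were 318, 231, 240 and 236 bp wide and stood at 36.4%, 98.4%, 85.8% and 68.7% of the lists. Ccnd3 (chromosome 17, 47505051 to 47599689) had 3, 3, 3 and 4 peaks in its locus, the most of any cell cycle gene when summed over the libraries (13). The region at the second annotated start (47593274 to 47593903) was held by all 4 libraries, at 40.2%, 15.0%, 73.3% and 21.5%, while no peak lay within 1 kb of the first start. Another region inside the gene, 47511059 to 47511871, was also held by all 4, at 91.9%, 71.9%, 13.3% and 39.9%. A region in its upstream flank lay at an end of Taf8.

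Of the kinases, Cdk2 and Cdk4 had gene-end peaks in all 4 libraries, Cdk1 in all but control replicate 1 and Cdk6 in none. Cdk1, the kinase of mitotic entry, stood at 27.3%, 79.8% and 19.02% in control 2, knockdown 1 and knockdown 2. All 3 peaks covered its E2F match and both of its CHR matches. The Cdk2 peak stood at 53.7%, 32.4%, 59.3% and 42.4%, and that of Cdk4 at 51.1%, 61.8%, 31.2% and 20.8%. These were peaks of middle rank in both groups. The Cdk2 peak was 224 and 215 bp wide for the controls against 515 and 661 bp for the knockdown, 1 of the 8 genes with wider peaks in both knockdown libraries. A much stronger region in the Cdk2 locus, at 0.960%, 0.161%, 1.79% and 0.427% of the lists, lay at an end of Rab5b and within 1 kb of an end of Pmel.

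Cdk6 is a long gene (190 kb) whose annotated start lies inside the gene bounds. A peak covered that start in knockdown replicate 2 alone, at 97.7% of the list. An intragenic region on chromosome 5 from 3433101 to 3433628 was held by all but control replicate 1. A second, from 3501829 to 3503033, was knockdown-only, 804 bp wide at 99.2% of the knockdown 1 list and 1205 bp wide at 65.6% of the knockdown 2 list. It was among the weakest peaks of knockdown replicate 1.

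Among the inhibitors, Rb1 and Cdkn1b had gene-end peaks in all 4 libraries and Cdkn1c and Cdkn2c in all but control replicate 1. Rb1 encodes the retinoblastoma protein, and its peak ranked low in 3 lists (85.7%, 86.8% and 86.2%) and at 45.1% in knockdown replicate 2. Cdkn1b encodes p27, an inhibitor of cyclin E with Cdk2 that marks quiescent cells, and its peak stood at 75.7%, 32.3%, 45.7% and 35.5%. Cdkn1c encodes p57, and Cdkn2c the INK4 inhibitor p18. In control 2, knockdown 1 and knockdown 2, Cdkn1c stood at 25.8%, 23.2% and 41.0% and Cdkn2c at 61.2%, 44.5% and 33.2%. Downstream of Cdkn1b, a region 2984 bp past the gene was held by all but control replicate 1. Control replicate 1 did hold the region at the end of Faf1 in the Cdkn2c locus, as did the other 3 libraries.

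Cdkn1a encodes p21, an inhibitor of cyclin-dependent kinases induced by p53. It had no gene-end peak in any library, but all 4 libraries held a region over and after its second annotated start, on chromosome 17 from 29093555 to 29095788. The peak there was 1124 and 437 bp wide in controls 1 and 2 and 2137 and 2105 bp wide in knockdown replicates 1 and 2. The groups did not overlap in this width, as at 15 of the 23 regions that every library held in the cell cycle loci and at 2559 (50%) of the 5120 such regions genome-wide. The opposite order was seen at 1 of the 23, the Ccnd2 gene end, and at 2.15% of the 5120. In the knockdown libraries the peak began at −117 and −214 bp of the second start, and in the controls 704 and 1391 bp after it. It stood at 64.4%, 45.9%, 42.6% and 55.5% of the lists, which are middle ranks in both groups. With windows of 3 kb in place of 1 kb at gene ends, Cdkn1a counted as knockdown-only, although both controls held the neighbouring part of the same region. Control 2 and knockdown 1, with lists of nearly equal length, differed in this width by 437 against 2137 bp. Over all peaks the median widths of those lists were 343 and 445 bp. The promoter of the second start (chr17:29093519-29093798, plus strand) is shown because of its E2-box match, in capitals. It was the single such match in the windows of the 25 genes with a promoter entry, and the other genes were not searched.
Cdkn1a second start: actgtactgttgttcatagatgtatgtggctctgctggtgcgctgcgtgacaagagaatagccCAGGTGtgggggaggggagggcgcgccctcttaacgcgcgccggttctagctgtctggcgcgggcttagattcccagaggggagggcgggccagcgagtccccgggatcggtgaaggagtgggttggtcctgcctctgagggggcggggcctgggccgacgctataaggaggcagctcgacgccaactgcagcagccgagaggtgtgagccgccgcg
The match begins at position −187 from the start, at 29093582 to 29093587, and was covered by the peak of knockdown replicate 2 and by none of the other 3.

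E2f1, the activating factor of S-phase genes, was open at a gene end in every library, at 36.5%, 12.9%, 13.4% and 7.40% of the lists. The peaks were 390, 317, 362 and 533 bp wide and shared 266 bp. They kept their place in all 4 libraries with a −log10 q of at least 3 and with equally long lists.

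Over the whole loci, the 4 libraries held 25, 39, 44 and 54 peaks, which merged into 55 regions. Per 1000 listed peaks this was 3.29 and 2.85 for the controls against 3.21 and 2.72 for the knockdown, with means of 3.07 ± 0.307 and 2.96 ± 0.353 (SD, n = 2 each). The difference of −0.104 was smaller than the SD of either group, and the groups overlapped. Within replicate numbers 1 and 2 the differences were −0.0718 and −0.137, both below 0, and replicate 2 was the lower library in both groups. Its sign changed with the lists used. A locus peak was held by all 4 libraries at 18 genes (32.1% of all genes) and by all but control replicate 1 at 10 (16.3%). It was held by both knockdown libraries alone at 3 (3.96%), by both controls alone at 0 (0.190%) and by none at 2, Rrm2 and Plk1 (34.2%). The 3 knockdown-only loci were Mcm6, Ccnb2 and Bub1. The call at Bub1 came from peaks at an end of Mtln, 7505 bp from Bub1, and not from Bub1 itself. Without peaks at the ends of other genes, 2 loci (Mcm6 and Ccnb2) were knockdown-only, and Aurkb and Cdkn2c moved from all 4 libraries to all but control replicate 1. Mcm2 moved from all but control replicate 1 to knockdown replicate 2 alone, and Bub1 moved there from both knockdown libraries. The shares of all genes without such peaks were not computed.

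Of the 55 regions, 27 lay at the gene's own ends, 9 in gene bodies, 11 at an end of another gene and 8 elsewhere in the flanks. All 4 libraries held 23 of them (41.8%, against 20.3% of all 25263 merged regions), and 6 were knockdown-only (10.9%, against 10.1%). Control-only regions numbered 0, against 0.158%. Besides those at Mcm6, Ccnb2, Mtln and Cdk6, the knockdown-only regions were 1 inside Mki67 (chromosome 7, 135699252 to 135699729) and 1 lying 3772 bp below the low-coordinate end of Aurkb (chromosome 11, 69040284 to 69041852). The Mki67 region stood at 57.9% and 77.7% of the knockdown lists. The Aurkb region was 1047 and 1569 bp wide and stood at 43.3% and 91.5%. These 6 regions hold no control peak by definition, and their share was near that of all regions.

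**Figure D4:**
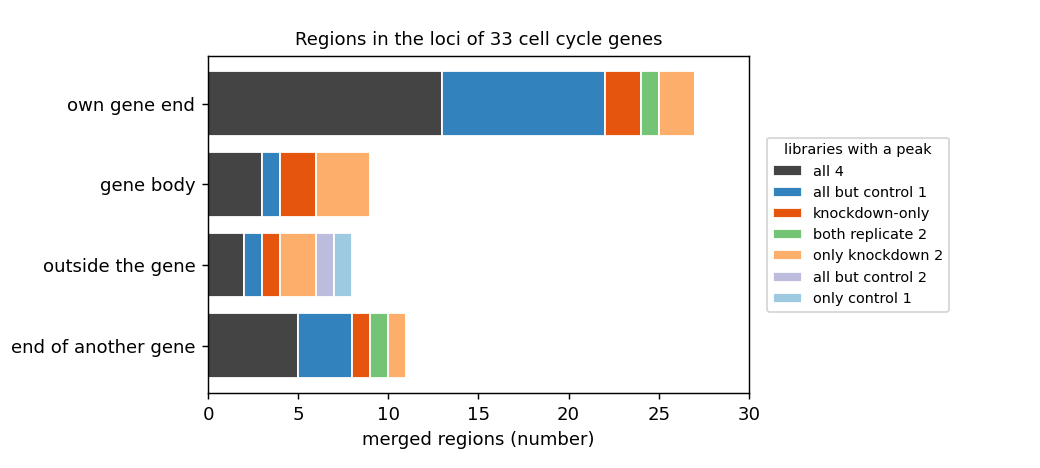
Number of merged regions (horizontal axis) in the loci of the 33 genes, by where they lie (rows) and by which libraries held a peak in them (colours). Of the 27 regions at the genes' own ends, 13 were held by all 4 libraries and 9 by all but control replicate 1, and 2 were knockdown-only.

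The cell cycle promoters differed from other promoters in their motifs and base composition, given here as a description. A CCAAT box was found in 19 of the 25 genes with an entry (76%), against 36.1% of all 32851 promoter entries of the same length, and in all 7 replication genes. E2F sites were found in 8 (32%, against 5.22%), of which 4 were replication genes. CHR elements were found in 7 (28%, against 18.4%), of which 3 were mitosis genes. An E2-box was found in 1 (4%, against 19.1%). A gene with 2 starts counted if either window held a match. The median GC content was 62.1% over the 29 windows of these genes and 52.5% over all windows, with a median of 23 CG dinucleotides against 6. The search says only which letters stand in these windows.

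Another 130 genes of the cell cycle, chosen from general knowledge of the pathway, were read in the same way. Gene-end peaks were held by all 4 libraries at 72 (55.4%), by all but control replicate 1 at 21, by both replicate 2 libraries alone at 8, and by none at 17. Knockdown-only genes numbered 2 (1.54%) and control-only genes 0. The 2 were Racgap1, a regulator of cytokinesis, at 44.9% and 24.1% of the knockdown lists, and Rbl1, the retinoblastoma relative p107, at 60.1% and 91.2%. Per library 75, 104, 102 and 107 of the 130 had a gene-end peak, so control replicate 1 was again the lowest. Of the 41 further mitosis genes, 25 were open at an end throughout the 4 libraries, against 0 of the 7 listed above. Of the 43 further replication genes, 18 did, against 5 of 8. In the share held by all 4 libraries, the order of replication above mitosis seen among the 33 genes was therefore not seen among the 130. Median ranks by role were not computed for the 130.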

How the data were processed

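ATAC-seq peaks were compared between 2 control and 2 Zeb1 knockdown libraries, grouped and numbered by their titles. The authors deposited 1 list of broad peaks per library on mm10. MACS2 2.1.1, bedtools 2.26.0, Bowtie2 2.3.2, SAMtools 1.3, Trimmomatic 0.36 and Picard 2.9.2 are named, without roles, per the submitters' processing notes. Their settings, the read shift and the filter behind the lists are not given in the sources used here. Each deposited peak carries a score, a fold enrichment (a ratio) and its p and q as −log10 values, and every −log10 q was above 1.

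Peaks were ranked within a list by −log10 q. A library held a window with an overlap of at least 1 bp. Gene bounds came from RefSeq (GRCm38.p6), and annotated starts from its promoter table. Peak widths were summed per library over a gene end or merged region, a comparison chosen after seeing the data. Overlaps were computed in Python 3.11.15 with pandas 2.3.3 and checked on simulated peaks.

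The 33 genes, the other lists and the motifs were chosen with earlier results of these data known. Named are all 33, the genes sharing their peaks and the knockdown-only genes of the further list. Alternatives tried were 7608 peaks per list, −log10 q no lower than 3, each library left out, at least 50% of a peak in the window, windows of 500 bp and 3 kb, flanks of 5 and 50 kb, the replicate number as a block and, chosen after seeing the data, control replicate 2 against knockdown replicate 1.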

Additional observations from a re-analysis of the deposited data

How the results depend on the processing

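Across 72 recomputed values, 55 stayed within 1.5 times the reported count, or within 1 SD (pooled over the groups) of the reported difference, and 17 did not. The rule is loose. It counts as unchanged the fall to 2.5 genes without control replicate 1, several changes of sign in the locus difference, and counts of 0 that stayed 0. With the replicate number as a block, the mean of the within-number differences was 7.5 genes with a gene-end peak (11 for number 1 and 4 for number 2) and −0.104 locus peaks per 1000, the same as without it by construction. With a −log10 q of at least 3, 1 gene was knockdown-only at a gene end (Ccnb2) and 7 were held by all 4 libraries. With 7608 peaks per list, the difference was 1.5 genes, 1 gene was knockdown-only at a gene end (Cdkn2c) and 2 control-only (Cdk2 and Ccnd2). In those lists 7 genes were held by all 4 libraries, 1 locus was knockdown-only (Bub1), 1 was control-only (Ccnd2), and the difference in locus peaks per 1000 was 0.394. The shares of all genes with these patterns were not computed at either setting, so these counts have no background. Between control replicate 2 and knockdown replicate 1 alone, the difference was 1 gene, 1 gene was control-only (Aurkb), 22 were held by both, and the locus difference was 0.362. Leaving out 1 library at a time gave 2 to 11 knockdown-only genes, 13 to 22 held by all remaining libraries, and 3 to 13 knockdown-only loci. The ranges for the other results were 2.5 to 12.5 genes, −0.354 to 0.145 locus peaks per 1000, and 0 control-only genes or loci. The highest counts of knockdown-only genes and loci were without control replicate 2, and the highest count held by all without control replicate 1. With a library left out, shares over all genes were computed for knockdown-only gene ends only. The locus counts and the counts held by all remaining libraries therefore have no background. With windows of 3 kb, 3 genes were knockdown-only, a count also without its share of all genes, and with flanks of 50 kb the locus difference was 0.180. Depth is unknown, so an absent peak is not shown to be closed chromatin.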
